A study of Mus musculus with 9 samples.

Results

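Homologous recombination joins broken chromosomes without loss of sequence, and the Fanconi pathway opens DNA strands that have become crosslinked. The genes described here are 37 named members of these processes and of the checkpoint that answers to them, taken by exact gene symbol from the table of counts and the table of levels, over all 3 time points and all replicates. Of the 37, 36 had a row, and all 36 were among the 14742 genes tested, out of 38197 symbols in the tables; Fanca had no row and was not analysed here. They were read in 5 roles: the BRCA1 and BRCA2 complexes, strand invasion and annealing, the Fanconi core and ID complex, end resection and dissolution, and the ATM and ATR checkpoint.

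The libraries came from neural stem cells (NSCs) that were made from mouse embryonic stem cells in monolayer and sorted for Prominin-1, which progenitors carry at their surface. Time is given in days in differentiation conditions (DDC), and polyA RNA was sequenced from 3 libraries each at 4.5DDC, 5.5DDC and 6.5DDC. The 3 groups had the same genotype (wild type), the same strain (129) and the same treatment, retinoic acid (RA) with the Hedgehog pathway agonist SAG from 0 to 3 DDC by the labels (slightly longer by the study's methods), which directs the cells to a ventral hindbrain fate. They differed only in the day of collection. The cells are a culture model from an established stem cell line rather than an embryo, and the labels do not say whether replicates came from separate cultures, so every p below measures the spread between these samples.

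Summed counts were 17820600, 11244489 and 14390493 in replicates 1, 2 and 3 of 4.5DDC. At 5.5DDC they were 25506192, 11573528 and 11066572, and at 6.5DDC 12851795, 16479971 and 15913820. The deepest library was thus replicate 1 of 5.5DDC, and 3 counts in a library correspond to between 0.118 and 0.271 counts-per-million (CPM). Levels are given in FPKM, which scales reads to the length of the transcript in kilobases and to the mapped reads of the library, so that different genes can be compared. Changes were tested on counts, and CPM are scaled with TMM factors, which correct for differences in composition between libraries.

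Replicate 1 stood apart from replicates 2 and 3 at all 3 time points. On the second principal component of all genes tested, which held 27.2% of the variance, replicate 1 scored 23.9, 54.5 and 49.3 at 4.5DDC, 5.5DDC and 6.5DDC, whereas every other library scored between -44.6 and -3.10. The first component held 39.9% and followed the day: -53.0, -45.3 and -26.5 at 4.5DDC, -31.9, 6.498 and 7.87 at 5.5DDC, and 21.4, 63.7 and 57.3 at 6.5DDC. On it too, replicate 1 lay on the early side of its own day at all 3 time points, though at 4.5DDC replicate 2 was near it. Results are therefore given over all libraries, within replicate 1, and for replicates 2 and 3.

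Homologous recombination copies the lost sequence from a sister chromatid, which exists only after DNA has been replicated, so many of its genes are transcribed most in cells that are in S phase. Progenitors that divide rapidly use this route, while cells that have left the cell cycle rely mainly on joining ends. The Fanconi proteins are called on when a replication fork meets a crosslink.

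A gene was called changed when its adjusted p was under 0.05 by the quasi-likelihood test of edgeR, adjusted after Benjamini and Hochberg over all 14742 genes; every adjusted p below is from this test unless another tool is named. Fold changes are given as log2, the later over the earlier day, so that -1 means a level divided by 2, and SE is the standard error of that estimate. From 4.5DDC to 6.5DDC, 25 of the 36 members were called lower, where 9.52% of all genes tested were. No member was called higher, against 9.2% of all genes. In CPM, all 3 libraries of 6.5DDC lay below all 3 of 4.5DDC for 27 members, or 75%, beside 17.6% of all genes tested.

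Over the members the log2 fold changes ran from -2.57 to -0.01. Their median was -1.08, beside 0.0040 over all genes tested, which TMM scaling tends to hold near 0. The members' median was -0.76 within replicate 1, where 35 members were negative, and -1.14 in replicates 2 and 3, where 34 were. Taken singly, replicate 2 had -0.89 and replicate 3 had -1.32, so replicate 2 lay nearer to replicate 1. The fall thus had the same sign with and without the library set that stood apart, but was smaller inside it. With replicates 2 and 3 only, 27 members were called lower, beside 14.8% of the 14638 genes then tested. Because RNA was taken from whole sorted populations, fewer cells of a type and less RNA per cell cannot be told apart.

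**Figure D1:**
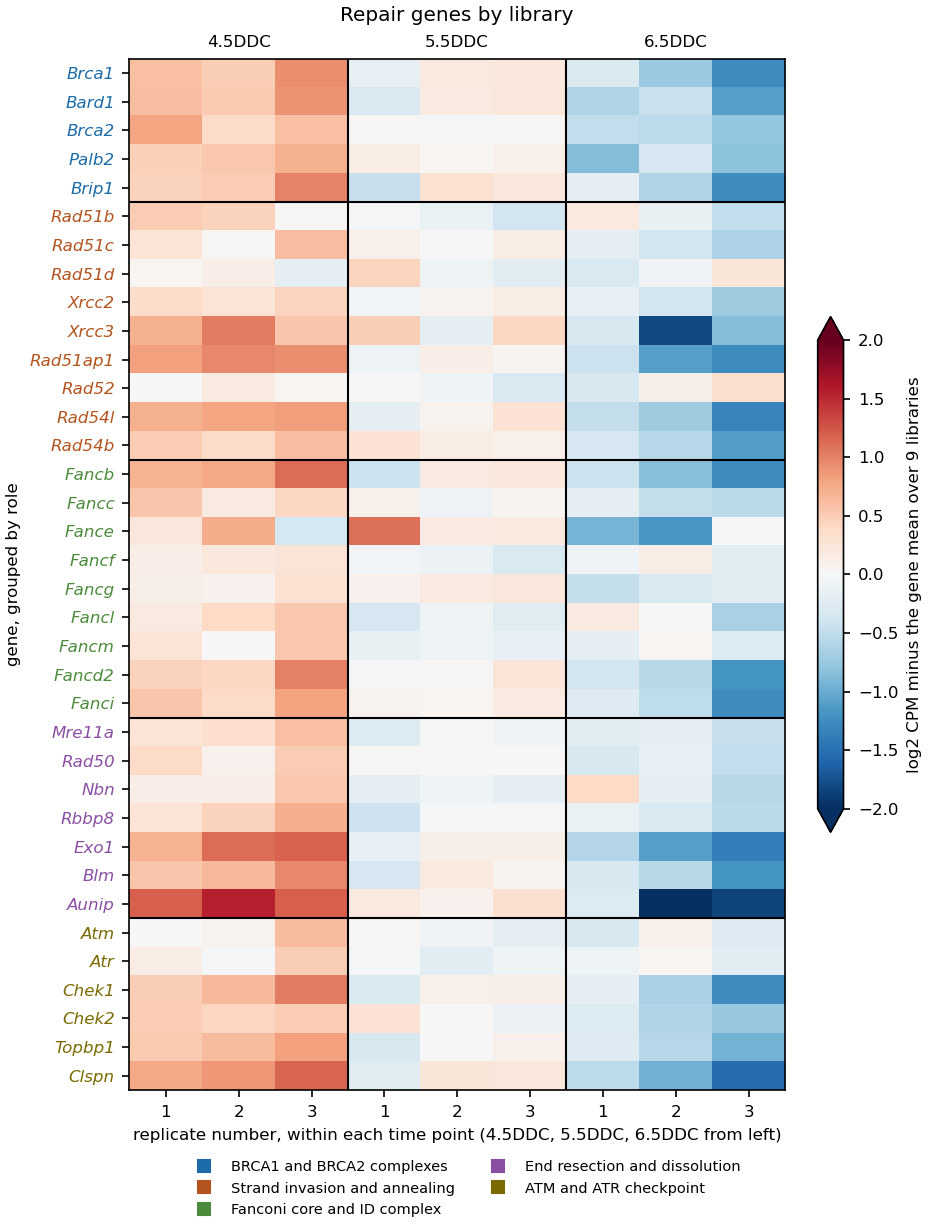
Heat map of the 36 repair genes (rows, grouped by role) in each of the 9 libraries (columns, 3 replicates per time point), coloured by log2 CPM minus the gene's mean over the 9 libraries. The median over the genes goes from 0.48, 0.42 and 0.61 in replicates 1, 2 and 3 at 4.5DDC to -0.30, -0.48 and -0.76 at 6.5DDC.

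The heat map of the 36 genes by library shows the first day above the last in most rows. The fitted value was positive in the second interval for Rad51b, Rad52, Fancf, Fancl, Fancm, Nbn and Atr, and in the first for Rad51d and Fance. The summed level of the members was read in FPKM. It was 476.6, 534.1 and 569.2 in replicates 1, 2 and 3 at 4.5DDC, 359.2, 388.3 and 399.1 at 5.5DDC, and 301.5, 268.5 and 241.6 at 6.5DDC. No library of a later day reached the lowest library of an earlier one. Replicate 1 had the lowest sum at 4.5DDC and the highest at 6.5DDC, so its drop was the smallest.

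The stretch around each gene's start was read for letters that recur in promoters of genes of the cell cycle. Windows of 300 bases, 250 before and 50 after the start, came from RefSeq on GRCm38.p6 and were found for 28 of the 36 members, in 31 windows; Rad51d, Rad54b, Xrcc2, Fancd2, Exo1, Rbbp8, Rad50 and Nbn had none. The E2F type was taken as TTTCCCGC, TTTGGCGC, TTTCGCGC or TTTGCCGC on either strand. It lay in 7 of the 28 members (25%), in 744 of 32851 windows of all genes (2.26%), and in 10 of 21 S phase genes (47.6%). Of 21 G2 and M phase genes, 1 held it (4.76%). Among members called lower, 6 of 19 held it (31.6%), and among those not called 1 of 9 (11.1%), namely Fancg.

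The other 2 motifs were CHR, TTTGAA, and the CCAAT box, CCAAT, again on either strand. CHR lay in 2 of the 28 members (7.14%), in 17.9% of all windows, and in 16 of 21 G2 and M phase genes (76.2%). Of 21 S phase genes, 4 held it (19%). CCAAT lay in 17 of the members (60.7%), in 37.4% of all windows and in 18 of the 21 G2 and M phase genes (85.7%). Of the 21 S phase genes, 14 held it (66.7%). Shares for members and lists count a gene once if any of its windows holds the letters, while the share over all genes counts windows. The latter was also not limited to the genes tested here, so the shares are not of like sets. The 7 members with an E2F type match are shown. Of these 6 were called lower, beside 19 of all 28 members with a window. Capitals mark the match. It begins 209 bases before the start in Bard1, 168 in Brca2, 52 in Fancg, 152 in Chek2 and 129 in Topbp1, and 21 after it in Clspn. Rad51c has 2 starts, with a match 11 bases after the first and 5 before the second. Each sequence reads 5′ to 3′ on the gene's own strand, and a match describes letters only.
Bard1, chr1:71102923-71103222, minus strand: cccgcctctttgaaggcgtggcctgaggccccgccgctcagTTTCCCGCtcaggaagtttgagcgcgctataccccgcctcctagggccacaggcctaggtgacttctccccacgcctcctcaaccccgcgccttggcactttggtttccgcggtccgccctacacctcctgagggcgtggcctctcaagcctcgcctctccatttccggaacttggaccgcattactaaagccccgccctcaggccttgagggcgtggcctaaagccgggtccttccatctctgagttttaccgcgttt
Brca2, chr5:150522371-150522670, plus strand: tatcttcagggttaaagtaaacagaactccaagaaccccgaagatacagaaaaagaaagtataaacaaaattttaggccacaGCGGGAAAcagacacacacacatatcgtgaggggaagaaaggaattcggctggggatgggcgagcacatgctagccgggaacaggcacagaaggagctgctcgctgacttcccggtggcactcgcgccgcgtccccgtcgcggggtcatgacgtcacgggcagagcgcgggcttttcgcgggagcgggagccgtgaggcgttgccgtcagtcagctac
Rad51c, chr11:87404457-87404756, minus strand: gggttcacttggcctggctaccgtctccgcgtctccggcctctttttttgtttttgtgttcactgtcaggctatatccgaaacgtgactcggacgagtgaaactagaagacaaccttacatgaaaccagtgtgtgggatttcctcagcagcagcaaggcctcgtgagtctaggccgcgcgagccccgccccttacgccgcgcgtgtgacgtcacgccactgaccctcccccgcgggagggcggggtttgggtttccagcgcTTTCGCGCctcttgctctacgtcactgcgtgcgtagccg
Rad51c, chr11:87404905-87405204, minus strand: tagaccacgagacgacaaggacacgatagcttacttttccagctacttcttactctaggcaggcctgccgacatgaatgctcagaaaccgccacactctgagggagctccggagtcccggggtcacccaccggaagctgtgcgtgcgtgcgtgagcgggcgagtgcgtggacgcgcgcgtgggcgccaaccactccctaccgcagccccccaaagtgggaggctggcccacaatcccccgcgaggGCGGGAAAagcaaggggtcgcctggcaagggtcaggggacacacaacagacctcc
Fancg, chr4:43010252-43010551, minus strand: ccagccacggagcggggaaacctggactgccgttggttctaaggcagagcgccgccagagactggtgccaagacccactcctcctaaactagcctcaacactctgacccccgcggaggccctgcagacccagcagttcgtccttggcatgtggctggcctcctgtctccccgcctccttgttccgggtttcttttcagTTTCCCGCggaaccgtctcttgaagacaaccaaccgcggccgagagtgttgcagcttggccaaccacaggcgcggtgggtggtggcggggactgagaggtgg
Chek2, chr5:110839733-110840032, plus strand: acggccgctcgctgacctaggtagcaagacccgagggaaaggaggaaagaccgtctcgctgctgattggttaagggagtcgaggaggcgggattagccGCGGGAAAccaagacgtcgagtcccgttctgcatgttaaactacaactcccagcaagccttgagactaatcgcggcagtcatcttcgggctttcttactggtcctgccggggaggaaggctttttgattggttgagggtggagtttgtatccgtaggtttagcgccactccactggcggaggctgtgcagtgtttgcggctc
Topbp1, chr9:103305077-103305376, plus strand: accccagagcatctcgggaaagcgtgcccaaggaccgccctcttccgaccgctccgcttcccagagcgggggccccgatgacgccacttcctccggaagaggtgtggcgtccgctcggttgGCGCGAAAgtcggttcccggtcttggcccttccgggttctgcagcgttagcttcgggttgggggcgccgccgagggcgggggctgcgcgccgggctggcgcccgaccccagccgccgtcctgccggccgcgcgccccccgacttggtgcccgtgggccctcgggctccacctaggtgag
Clspn, chr4:126556730-126557029, plus strand: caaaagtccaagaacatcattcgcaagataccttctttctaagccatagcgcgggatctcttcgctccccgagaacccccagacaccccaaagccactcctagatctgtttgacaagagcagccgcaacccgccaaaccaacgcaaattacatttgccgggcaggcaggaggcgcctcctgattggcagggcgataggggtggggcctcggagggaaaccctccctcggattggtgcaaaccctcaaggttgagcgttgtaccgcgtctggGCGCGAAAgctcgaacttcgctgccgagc

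The BRCA1 and BRCA2 complexes prepare broken ends for recombination, and all 5 members were called lower over the span. Brca1, which starts the choice of recombination at a break, stood at 17.1, 16.8 and 19.6 FPKM in replicates 1, 2 and 3 at 4.5DDC, 10.3, 12.8 and 13.1 at 5.5DDC and 8.498, 6.39 and 5.09 at 6.5DDC. Every library was below every library of the day before, and at 6.5DDC replicate 1 was the highest. The log2 fold change was -1.40 (SE 0.24, adjusted p = 0.00519), with -0.89 within replicate 1 and -1.70 in replicates 2 and 3. Bard1, the partner with which BRCA1 forms a ubiquitin ligase, had 5.12, 4.94 and 5.98 FPKM at 4.5DDC, 2.76, 3.87 and 3.98 at 5.5DDC and 2.15, 2.46 and 1.63 at 6.5DDC. These 3 groups did not overlap either. It fell at a log2 fold change of -1.38 (SE 0.23, adjusted p = 0.00467), and its window, with the E2F type match, is printed above.

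Brca2 acts on the single strands of a resected end, and its 3 groups were tight: 6.59 ± 0.919 FPKM (SD, n = 3) at 4.5DDC, 4.51 ± 0.0679 (SD, n = 3) at 5.5DDC and 2.898 ± 0.208 (SD, n = 3) at 6.5DDC. All libraries kept the order of the days. The drop, at a log2 fold change of -1.19 (SE 0.14, adjusted p = 0.00151), was nearly equal within replicate 1 (-1.27) and in replicates 2 and 3 (-1.13). Palb2, the bridge between BRCA1 and BRCA2, read 8.89, 11.8 and 12.7 FPKM at 4.5DDC, 9.18, 8.34 and 8.52 at 5.5DDC and 4.29, 5.37 and 4.77 at 6.5DDC. In FPKM the first days overlapped, since replicate 1 of 4.5DDC was the low one, and the last day lay apart from both. The fold change was -1.23 (SE 0.19, adjusted p = 0.00373). Brip1, a helicase bound to BRCA1, had 3.51, 3.79 and 5.25 FPKM at 4.5DDC, 2.18, 3.11 and 3.62 at 5.5DDC and 2.74, 1.57 and 1.07 at 6.5DDC. In FPKM only the first and last day were apart, and replicate 1 at 6.5DDC exceeded its own value at 5.5DDC. A log2 fold change of -1.29 (SE 0.31, adjusted p = 0.0199) was called in 20 of 22 alternatives and lost without replicate 3 of 4.5DDC or replicate 2 of 6.5DDC (adjusted p from 0.000888 to 0.0707 over the alternatives).

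**Figure D2:**
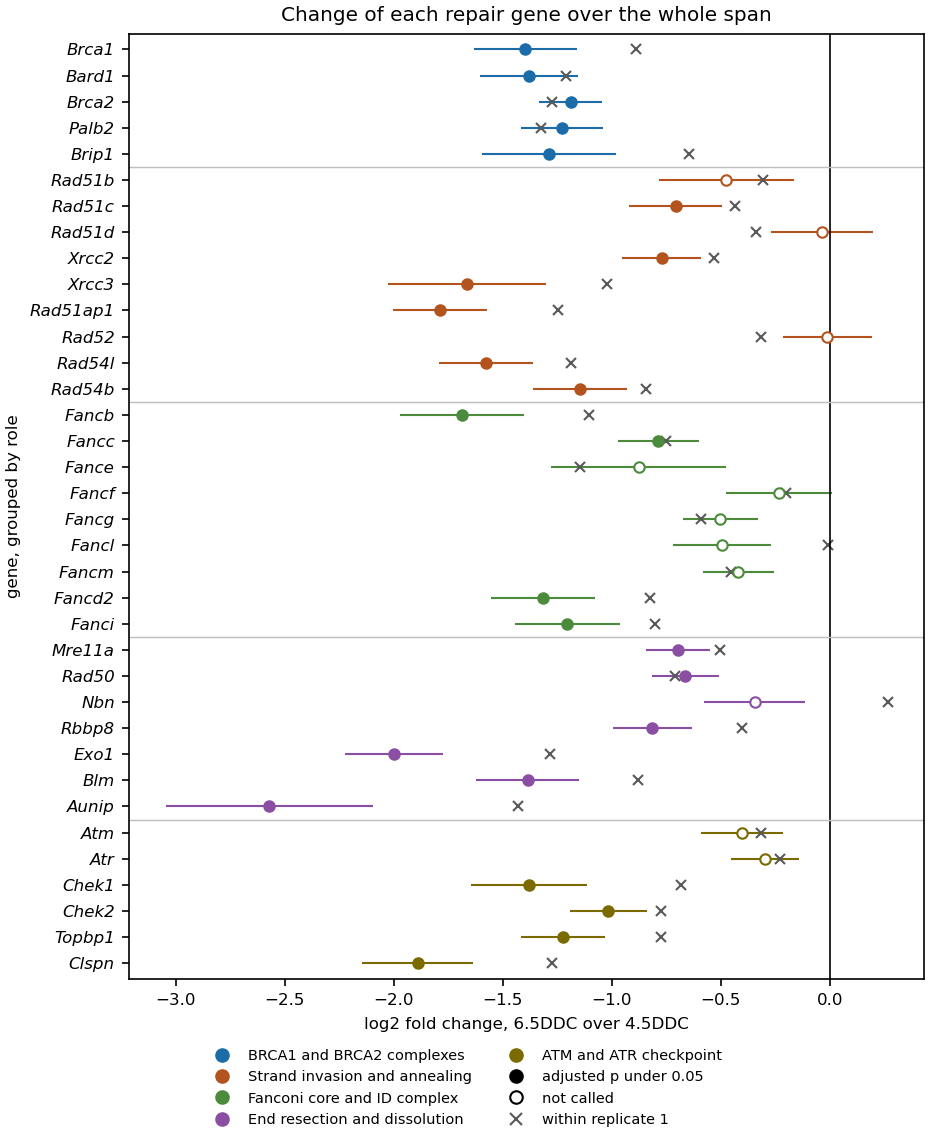
Log2 fold change of each of the 36 genes from 4.5DDC to 6.5DDC (points, with bars of 1 standard error, 3 libraries per group), filled where the adjusted p is under 0.05, and the change within replicate 1 (crosses). The points run from -2.57 for Aunip to -0.01 for Rad52, and the crosses lie nearer 0 for most genes (median -0.76 against -1.08).

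Strand invasion and annealing bring the broken end to the intact sister copy, and 6 of these 9 members were called lower. Rad51ap1, which stimulates strand pairing, gave 27.5, 24.95 and 22.7 FPKM at 4.5DDC, 13.5, 15 and 14.9 at 5.5DDC and 8.93, 6.78 and 5.77 at 6.5DDC. The days were well apart, with replicate 1 highest on the first and on the last. With a log2 fold change of -1.79 (SE 0.22, adjusted p = 0.00151), the gene kept 28.97% of its earlier level, at -1.25 within replicate 1 and -2.11 in replicates 2 and 3. Rad54l, a motor that remodels the joint, stood at 29.5, 59.3 and 44.6 FPKM at 4.5DDC, 19.6, 24.7 and 26.9 at 5.5DDC and 19.8, 10.3 and 8.08 at 6.5DDC. In CPM the first day read 81.3, 86.1 and 88.9, much closer together than the FPKM of the same libraries, while in both units all of 6.5DDC lay below all of 4.5DDC. It fell with a log2 fold change of -1.58 (SE 0.21, adjusted p = 0.00224). Lrrc41 on the opposite strand shares 15.4% of its exonic bases, and the strand setting of the counting is not stated, so its level is uncertain.

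The related motor Rad54b had 16.6, 14.98 and 20.7 FPKM at 4.5DDC, 16.9, 12.9 and 14.7 at 5.5DDC and 11.97, 10.8 and 7.45 at 6.5DDC. Its earlier days overlapped in FPKM, and 6.5DDC was below both. Rad54b fell at a log2 fold change of -1.15 (SE 0.22, adjusted p = 0.00774), again uncertain as a level because Fsbp on the same strand shares 35.8% of its exonic bases. Xrcc3, which works in a complex with Rad51c, was low at 4.22, 5.36 and 5.54 FPKM at 4.5DDC, 3.79, 2.73 and 4.06 at 5.5DDC and 2.24, 0.732 and 1.48 at 6.5DDC. Replicate 2 was the lowest library on the last 2 days, and the days did not overlap. It fell with a log2 fold change of -1.66 (SE 0.36, adjusted p = 0.0141); without replicate 2 of 4.5DDC the call was lost (adjusted p from 0.000156 to 0.0535 over 22 alternatives). Xrcc2, of the BCDX2 complex, went from 7.21, 8.97 and 6.89 FPKM through 5.26, 5.99 and 6.297 to 5.08, 4.11 and 3.39. The 3 days were apart, though by little between 5.5DDC and 6.5DDC. Xrcc2, called at a log2 fold change of -0.77 (SE 0.18, adjusted p = 0.0185), lost its call with only the 6 libraries compared, without replicate 3 of 4.5DDC and without replicate 2 of 6.5DDC (0.00104 to 0.0643).

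Rad51c, shared by the complexes of Xrcc2 and Xrcc3, had 6.69, 5.85 and 8.69 FPKM at 4.5DDC, 5.47, 5.55 and 7.15 at 5.5DDC and 4.07, 4.44 and 3.61 at 6.5DDC. The last day was below the others, with replicate 3 both the highest library at 4.5DDC and the lowest at 6.5DDC. Its fold change of -0.71 (SE 0.21, adjusted p = 0.0448) was the call nearest the threshold: 11 of 22 alternatives lost it, the replicate block and 8 of the 9 leave-one-out fits among them (adjusted p from 0.0159 to 0.130). The remaining 3 were not called in any alternative. Rad51b read 3.29, 3.32 and 2.32 FPKM at 4.5DDC and 2.76, 2.17 and 1.97 at 6.5DDC, overlapping days, with a log2 fold change of -0.47 (SE 0.31, adjusted p = 0.299) that moved to -0.31 without replicate 3 of 6.5DDC.

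Rad51d and Rad52 were the members whose sign over the span turned when single libraries were left out. Rad51d, also of the BCDX2 complex, stood at 6.35, 6.91 and 4.57 FPKM at 4.5DDC, 8.89, 4.37 and 5.29 at 5.5DDC and 3.79, 3.65 and 6.54 at 6.5DDC. The days overlapped throughout, and replicate 1 of 5.5DDC was the highest library. The log2 fold change of -0.04 (SE 0.23, adjusted p = 0.928) was -0.34 within replicate 1 and 0.10 in replicates 2 and 3, and it was positive once replicate 2 of 4.5DDC (0.03) or replicate 1 of 6.5DDC (0.08) was left out. Rad52, which anneals single strands, gave 12.2 ± 0.471 FPKM (SD, n = 3), 11.6 ± 0.5803 (SD, n = 3) and 14.1 ± 3.95 (SD, n = 3). At 6.5DDC its replicates were 9.82, 14.7 and 17.6, so that replicate 1 lay below and replicates 2 and 3 above every library of 4.5DDC. Over all libraries its log2 fold change came to -0.01 (SE 0.21, adjusted p = 0.975), and 0.14 without replicate 1 of 6.5DDC.

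The Fanconi core complex attaches ubiquitin to the ID complex of FANCD2 and FANCI at a crosslink, and 4 of the 9 members tested were called lower, both ID genes among them. Fancd2 went from 12.2, 11.3 and 16.6 FPKM at 4.5DDC through 8.11, 7.59 and 10.9 at 5.5DDC to 7.396, 5.995 and 3.83 at 6.5DDC. Each day lay below the one before by a narrow margin, and replicate 3 was the highest library on the first 2 days but the lowest on the last. Over the span this gave a log2 fold change of -1.32 (SE 0.24, adjusted p = 0.00673), at -0.82 within replicate 1 and -1.58 in replicates 2 and 3. Fanci, its partner, gave 8.78 ± 0.9395 FPKM (SD, n = 3), 6.48 ± 0.2901 (SD, n = 3) and 3.85 ± 1.06 (SD, n = 3). All libraries followed the order of the days. It fell with a log2 fold change of -1.20 (SE 0.24, adjusted p = 0.00973); Polg on the opposite strand shares 16% of its exonic bases, so its level is uncertain.

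In the core, Fancb, a scaffold gene on chromosome X, had 3.61, 3.97 and 4.58 FPKM at 4.5DDC, 1.66, 2.53 and 2.46 at 5.5DDC and 1.64, 1.31 and 0.963 at 6.5DDC. Replicate 1 was the lowest library of 5.5DDC and the highest of 6.5DDC, with a narrow gap in FPKM and an overlap in CPM. It fell furthest in this role, with a log2 fold change of -1.69 (SE 0.29, adjusted p = 0.00529). Fancc, of the arm that binds FANCE, read 12.5, 9.18 and 12.5 FPKM at 4.5DDC, 9.72, 6.16 and 7.53 at 5.5DDC and 8.201, 9.33 and 7.31 at 6.5DDC. In FPKM the first and last day overlapped through replicate 2, while in CPM they did not. The call at -0.79 (SE 0.19, adjusted p = 0.0193) was lost in 6 of 22 alternatives (0.00134 to 0.177), including both tests on FPKM and the fits without replicate 1 of 4.5DDC, replicate 2 of 6.5DDC or replicate 3 of 6.5DDC, and opposite-strand genes share 18.6% of its exonic bases.

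The other core genes were not called. Fance varied widely between replicates, at 18.7, 27.4 and 12.1 FPKM at 4.5DDC, 35.4, 17.1 and 18.02 at 5.5DDC and 7.32, 5.18 and 15 at 6.5DDC. Libraries of 4.5DDC overlapped both later days, while all of 6.5DDC lay below all of 5.5DDC. The estimate of -0.88 (SE 0.40, adjusted p = 0.1504) moved to -0.58 without replicate 2 of 4.5DDC. Fancl, the ubiquitin ligase itself, had 13.7, 16.1 and 20.5 FPKM at 4.5DDC, 9.91, 12.5 and 15.3 at 5.5DDC and 13.8, 12.6 and 9.53 at 6.5DDC. Replicate 1 was lower on the middle day only, while replicates 2 and 3 were below their first value on both later days. The estimate for Fancl, -0.49 (SE 0.22, adjusted p = 0.147), was -0.01 within replicate 1 and -0.78 in replicates 2 and 3, was -0.28 without replicate 3 of 6.5DDC, and was called in 1 alternative, replicates 2 and 3 only (0.0465 to 0.333 over 22).

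Fancg, a scaffold of the core, read 7.39, 8.11 and 6.52 FPKM at 4.5DDC and 3.83, 5.85 and 6.73 at 6.5DDC, days that overlapped through replicate 3 in FPKM but were apart in CPM. At -0.50 (SE 0.17, adjusted p = 0.06801) it was called only by DESeq2 and with a block for replicate 1 (0.0365 to 0.259 over 22 alternatives). For Fancm, the motor that brings the core to DNA, the values were 6.45, 5.37 and 7.34 FPKM at 4.5DDC and 4.52, 5.38 and 4.53 at 6.5DDC. Its days overlapped, with an estimate of -0.42 (SE 0.16, adjusted p = 0.0985) and -0.27 without replicate 3 of 4.5DDC. Fancf, an adaptor, was the flattest of the core at 1.78, 2.03 and 1.88 FPKM at 4.5DDC and 1.56, 1.86 and 1.49 at 6.5DDC. Its replicates overlapped as well, and the estimate of -0.23 (SE 0.24, adjusted p = 0.529) was -0.15 without replicate 3 of 6.5DDC. Opposite-strand genes share 13.7% of the exonic bases of Fancl (Vrk2) and 15% of those of Fancf (Gas2).

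End resection turns a break into single strands and dissolution separates the copied molecules at the end, and 6 of these 7 members were called lower. Exo1, the nuclease of long resection, stood at 8.66, 11.6 and 11.4 FPKM at 4.5DDC, 4.81, 5.89 and 5.86 at 5.5DDC and 3.45, 2.45 and 2.11 at 6.5DDC. All 3 days were apart, and replicate 1 was the lowest library on the first 2 days and the highest on the last. Its log2 fold change of -1.999 (SE 0.23, adjusted p = 0.00135) had the smallest adjusted p of all members and left 25.02% of the earlier level, at -1.28 within replicate 1 and -2.38 in replicates 2 and 3. Aunip, which binds ends before resection, had 5.29, 6.89 and 4.98 FPKM at 4.5DDC, 2.697, 2.499 and 2.94 at 5.5DDC and 1.83, 0.423 and 0.662 at 6.5DDC. The days were apart, yet the last rested on 33, 10 and 15 counts in replicates 1, 2 and 3. It had the largest fall, a log2 fold change of -2.57 (SE 0.48, adjusted p = 0.00736), with -1.43 within replicate 1 and -3.30 in replicates 2 and 3, and from -3.48 to -1.82 over the alternatives.

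Blm, the helicase of dissolution, gave 16.8 ± 1.93 FPKM (SD, n = 3) at 4.5DDC, 10.3 ± 1.89 (SD, n = 3) at 5.5DDC and 6.44 ± 1.72 (SD, n = 3) at 6.5DDC. Its days did not overlap in FPKM, but replicate 1 made 5.5DDC and 6.5DDC overlap in CPM. It fell with a log2 fold change of -1.39 (SE 0.24, adjusted p = 0.00545). Rbbp8, which encodes CtIP and starts resection, read 12.7, 14.7 and 16.6 FPKM at 4.5DDC, 8.11, 10.6 and 10.5 at 5.5DDC and 9.36, 8.36 and 7.48 at 6.5DDC. Here 4.5DDC was above both later days, which overlapped. The fold change of -0.81 (SE 0.18, adjusted p = 0.01496) was lost without replicate 2 of 6.5DDC (0.000884 to 0.0573 over 22 alternatives).

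The 3 genes of the MRN complex, which holds the broken ends, had smaller estimates. Mre11a, its nuclease, had 70.9, 73.99 and 88.9 CPM at 4.5DDC, 48.6, 58.8 and 56.1 at 5.5DDC and 49.99, 51.6 and 42.8 at 6.5DDC. In CPM and in FPKM the first day lay above the later days, which overlapped. In FPKM the gap was narrow, at 23.92 in replicate 2 of 4.5DDC against 23.85 in replicate 2 of 5.5DDC. The FPKM means were 24.9, 18.9 and 20.4, a smaller drop over the span than in CPM. A fall of -0.70 (SE 0.15, adjusted p = 0.0125) on counts was not called in the 2 tests on FPKM (0.000607 to 0.321 over 22 alternatives). Rad50, the tether, stood at 10.2, 7.57 and 14.3 FPKM at 4.5DDC and 8.58, 8.78 and 5.55 at 6.5DDC, overlapping in FPKM through replicate 2 but not in CPM. Called at -0.66 (SE 0.15, adjusted p = 0.0181), it was lost in 5 alternatives, both tests on FPKM, only the 6 libraries compared, and the fits without replicate 3 of 4.5DDC or replicate 3 of 6.5DDC (0.00192 to 0.265). Nbn, the adaptor, was the member in which replicate 1 was higher over the span and replicates 2 and 3 lower.

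Nbn read 16.9, 17.1 and 21.1 FPKM at 4.5DDC, 13.9, 15 and 13.8 at 5.5DDC and 19.6, 13.2 and 10.7 at 6.5DDC. At 6.5DDC replicate 1 lay among the libraries of 4.5DDC, whereas replicates 2 and 3 lay below all of them. The log2 fold change over all libraries was -0.35 (SE 0.23, adjusted p = 0.313), made of 0.27 within replicate 1 and -0.71 in replicates 2 and 3. It was called lower with replicates 2 and 3 only and without replicate 1 of 6.5DDC, where it was -0.65, and was -0.19 without replicate 3 of 4.5DDC and -0.14 without replicate 3 of 6.5DDC (adjusted p from 0.0291 to 0.671 over 22 alternatives).

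The checkpoint holds the cell cycle while breaks and stalled forks are repaired. Atm, the kinase for breaks, stood at 20.4, 19.5 and 27.02 FPKM at 4.5DDC, 17.7, 30.6 and 21.8 at 5.5DDC and 18.8, 20.5 and 18.5 at 6.5DDC. The days overlapped, with the highest library at 5.5DDC. Its estimate of -0.40 (SE 0.19, adjusted p = 0.158) moved to -0.18 without replicate 3 of 4.5DDC. Atr, the kinase for stalled forks, gave 7.81 ± 1.196 FPKM (SD, n = 3), 6.48 ± 0.416 (SD, n = 3) and 6.42 ± 0.435 (SD, n = 3). Its days overlapped too. Its estimate was -0.30 (SE 0.16, adjusted p = 0.202), and -0.14 without replicate 3 of 4.5DDC; neither kinase was called in any of the 22 alternatives.

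The other 4 checkpoint genes were called lower in all 22 alternatives. Chek1, the effector kinase of ATR, had the highest mean FPKM of the members at 4.5DDC, with 44.2, 54.4 and 58.8 FPKM, then 27.98, 35.7 and 48.9 at 5.5DDC and 24.4, 17.4 and 17.8 at 6.5DDC. Replicate 3 of 5.5DDC reached into the range of 4.5DDC, and 6.5DDC lay below both in FPKM, though it overlapped 5.5DDC in CPM. Chek1 fell at -1.38 (SE 0.27, adjusted p = 0.00853), which was -0.68 within replicate 1 and -1.79 in replicates 2 and 3. Chek2, the effector of ATM, had 14.6 ± 0.504 FPKM (SD, n = 3), 11.4 ± 1.803 (SD, n = 3) and 7.35 ± 1.19 (SD, n = 3). Its days did not overlap. It fell at a log2 fold change of -1.02 (SE 0.18, adjusted p = 0.00584), although Atm was not called.

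Topbp1, which activates ATR, went from 35.9, 39.2 and 41.5 FPKM at 4.5DDC to 20.3, 25.6 and 27.3 at 5.5DDC and 20.1, 16.5 and 13.4 at 6.5DDC. In FPKM the days were apart, while in CPM the last 2 overlapped through replicate 1. Topbp1 fell at a log2 fold change of -1.22 (SE 0.19, adjusted p = 0.00396), with -0.77 within replicate 1. Clspn, the adaptor that presents CHEK1 to ATR, read 19.9, 25.3 and 35.1 FPKM at 4.5DDC, 10.99, 13.6 and 14.7 at 5.5DDC and 11.6, 10.7 and 4.29 at 6.5DDC. The first day lay above the others, and replicate 1 of 6.5DDC exceeded replicate 1 of 5.5DDC in FPKM. It had the largest fall of the checkpoint, a log2 fold change of -1.89 (SE 0.25, adjusted p = 0.00218) with -1.27 within replicate 1 and -2.26 in replicates 2 and 3.

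**Figure D3:**
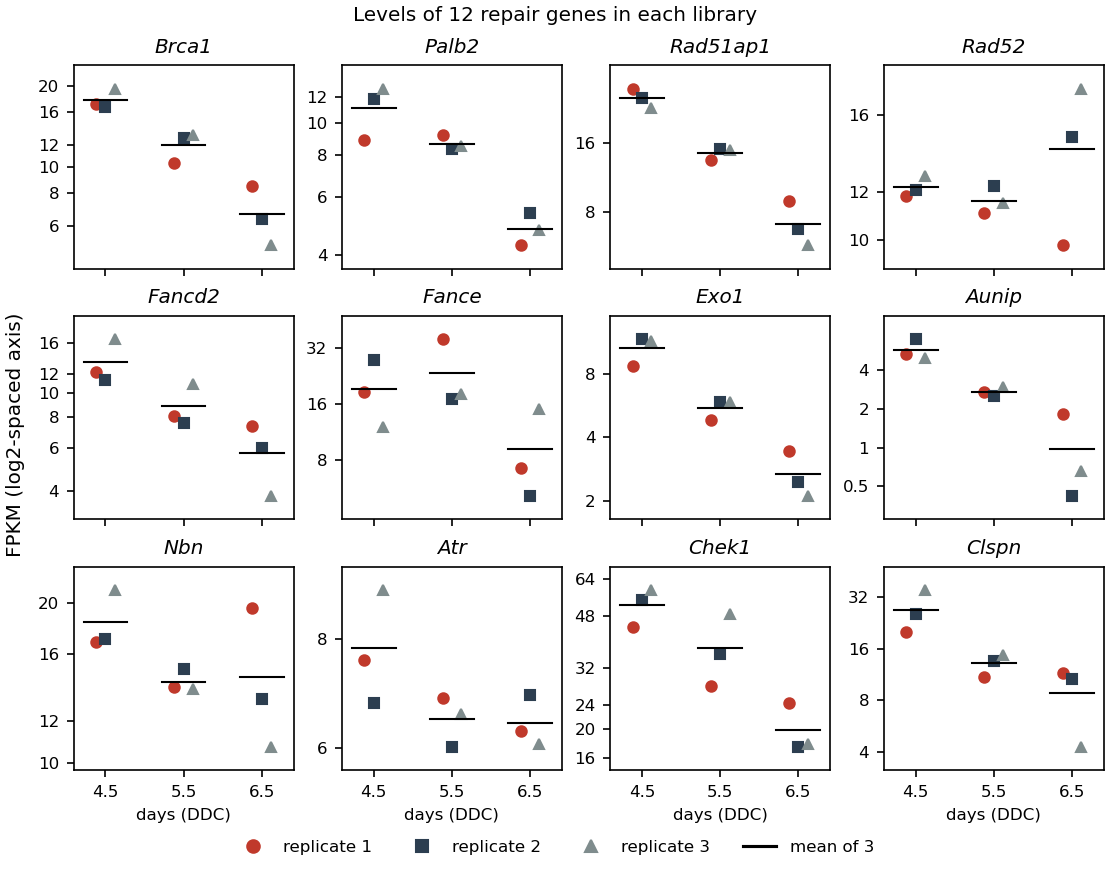
FPKM of 12 of the genes in each library (log2-spaced axis; symbols for replicates 1 to 3, bar for the mean of 3) at 4.5DDC, 5.5DDC and 6.5DDC. Exo1 steps down from a mean of 10.6 to 5.52 and 2.67, Atr stays between 6.42 and 7.81, and in Rad52 and Nbn replicate 1 parts from the others at 6.5DDC.

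Among the panels of 12 genes in FPKM, Brca1, Rad51ap1, Fancd2, Exo1 and Aunip step down on each day, the days of Atr overlap, and Rad52, Fance and Nbn depend on the replicate. In the other 3, Palb2, Chek1 and Clspn, 6.5DDC lies below 4.5DDC while 5.5DDC overlaps one of them. By role, the share called and the median log2 fold change over the span were 5 of 5 and -1.29 for the BRCA1 and BRCA2 complexes, 6 of 9 and -0.77 for strand invasion and annealing, and 4 of 9 and -0.79 for the Fanconi genes. They were 6 of 7 and -0.81 for resection and dissolution and 4 of 6 and -1.12 for the checkpoint. Against the pair of replicates 2 and 3, replicate 1 had the median nearer to 0 in all 5 roles, but replicate 2 alone was nearer still for the BRCA1 and BRCA2 complexes (-0.96 beside -1.21) and the Fanconi genes (-0.65 beside -0.75). Of the 25 called members, 17 stayed called in all 22 alternatives.

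In the first interval, from 4.5DDC to 5.5DDC, edgeR's quasi-likelihood test called 0 of 36 members, beside 0.0136% of all genes called lower. Values nevertheless lay mostly on the lower side: 34 members were negative, and 19 had an unadjusted p under 0.05 (2274 of all genes tested). In CPM all libraries of 5.5DDC were below all of 4.5DDC for 29 members, against 13.7% of all genes. The median log2 fold change was -0.51, with -0.48, -0.37 and -0.66 within replicates 1, 2 and 3. DESeq2 called 6 lower (Exo1, Rad51ap1, Brca2, Topbp1, Rbbp8 and Clspn; 1.38% of all genes), and a block for replicate 1 called 3 (Exo1, Rad51ap1 and Brca2; 0.767%). Replicates 2 and 3 only gave 2 (Exo1 and Rad51ap1; 0.895%), and the replicate block 0 (0.17%).

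From 5.5DDC to 6.5DDC the same test again called 0 of 36, beside 0.197% of all genes called lower. There were 29 negative members and 22 with an unadjusted p under 0.05 (2733 of all genes), and the CPM of all libraries of 6.5DDC lay below those of 5.5DDC for 20, against 13.9% of all genes. The median of -0.60 was -0.30, -0.51 and -0.82 within replicates 1, 2 and 3. Chek1 was 0.10 within replicate 1 and -1.06 in replicates 2 and 3. Brip1 was 0.28 within replicate 1 and -1.18 in replicates 2 and 3. DESeq2 called 10 lower (Exo1, Rad51ap1, Clspn, Rad54l, Palb2, Brca2, Rad54b, Brca1, Chek2 and Xrcc3; 2.8% of all genes), and a block for replicate 1 called 7 of these (1.88%). With replicates 2 and 3 only 9 were called, Aunip, Topbp1, Fancb and Chek1 in addition to Exo1, Rad51ap1, Clspn, Brca1 and Rad54l (2.51%), the replicate block called 0 (0.536%), and leaving out replicate 1 of 6.5DDC gave 4 (Rad51ap1, Aunip, Exo1 and Clspn; 0.858%).

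For Exo1 the log2 fold change was -0.98 (SE 0.22, adjusted p = 0.148) in the first interval. In the second it was -1.02 (SE 0.22, adjusted p = 0.0964), with -0.42 within replicate 1 and -1.35 in replicates 2 and 3. The difference between the intervals was tested directly for every gene, and no member was called (0% of all genes tested were), nor did any member have an unadjusted p under 0.05 (701 of all genes did). The median difference over the members was -0.04, with 21 negative and 15 positive. As the test called no gene at all, it says little on how evenly any decrease was spread. Single genes varied, such as Rbbp8 with -0.64 and then -0.17, and Fancg with -0.01 and then -0.49.

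Genes of the same repair route outside the 37 were read in the same fits. Of 47 other genes of recombination and crosslink repair, 20 were called lower over the span, with a median log2 fold change of -0.50, -0.39 within replicate 1 and -0.61 in replicates 2 and 3. Timeless, of the fork protection complex, had the smallest p of the list, at -1.85 (SE 0.18, adjusted p = 0.000843). Next came the nuclease partner Eme1 at -1.93 (SE 0.19, adjusted p = 0.000884) and the nuclease Dna2 at -1.92 (SE 0.21, adjusted p = 0.00127). Swi5, the most abundant of the 47 with a mean of 418 FPKM at 4.5DDC and 362 at 6.5DDC, was not called at -0.22 (SE 0.14, adjusted p = 0.298).

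Shorter lists covered the other repair routes. End joining had 3 of 15 genes called lower and a median of -0.36, with Parp1 the smallest p at -0.90 (SE 0.13, adjusted p = 0.00284). Its most abundant gene, Trp53bp1, was not called, with means of 108 FPKM at 4.5DDC and 105 at 6.5DDC. Mismatch repair had 3 of 7 and -0.41, led by Msh6 at -1.12 (SE 0.16, adjusted p = 0.00284). Excision repair had 6 of 24 and -0.37, led by Ung at -2.28 (SE 0.39, adjusted p = 0.00521). In the meiosis list 8 of 17 genes were tested, of which Psmc3ip, Mnd1 and Stag3 were called lower and Brdt higher, at 1.27 (SE 0.28, adjusted p = 0.0141). No test compared one list with another.

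Genes of the cell cycle moved with the members. Of 29 listed S phase genes 27 were tested (Gins2 and Cdt1 had no row and were not analysed here), and 25 were called lower, with a median of -1.37, -0.86 within replicate 1 and -1.88 in replicates 2 and 3. All 25 G2 and M phase genes were called lower, at -1.17, -0.60 and -1.52. Summed FPKM of the S phase genes was 1672, 2039 and 1988 in replicates 1, 2 and 3 at 4.5DDC, 940.7, 1205 and 1215 at 5.5DDC, and 921.8, 664.2 and 523.5 at 6.5DDC. For the G2 and M phase genes it was 2080.0, 2373 and 2536, then 1540.0, 1818 and 1898, then 1339, 1087 and 732.3. In both lists replicate 1 had the highest sum at 6.5DDC, as it did for the members. The most abundant S phase gene, Mcm7, fell at -1.62 (SE 0.18, adjusted p = 0.001103), and the most abundant of the G2 and M phase list, Top2a, at -1.17 (SE 0.27, adjusted p = 0.0168). The part of cell division in the members' result was not tested.

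**Figure D4:**
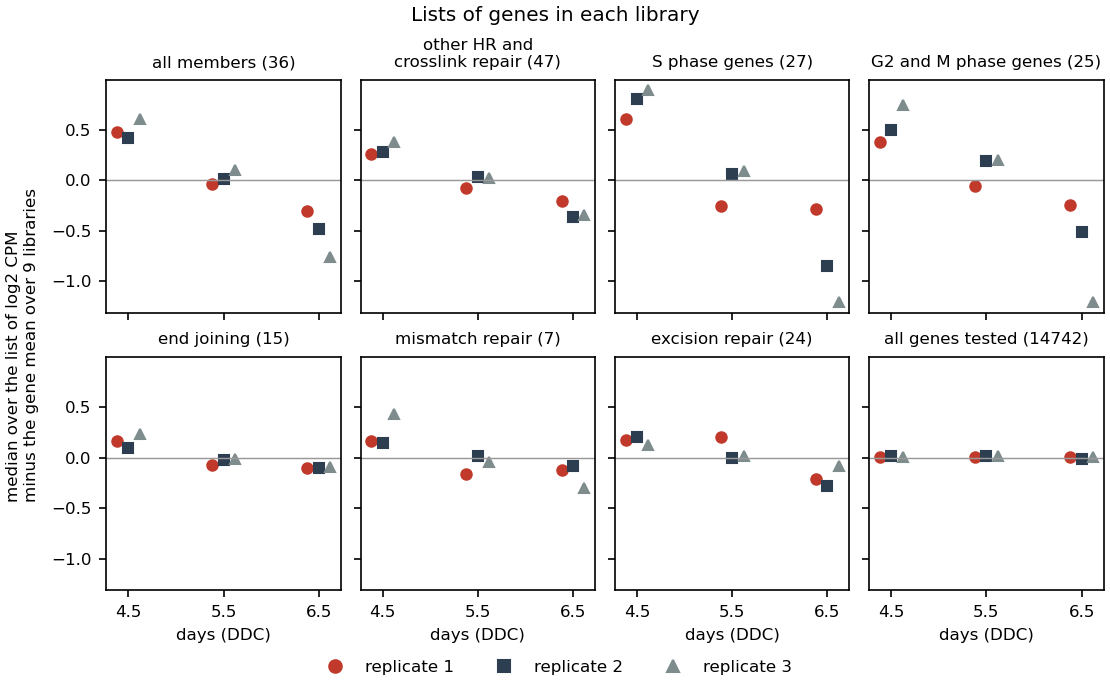
Median over each list of log2 CPM minus the gene's mean over 9 libraries, for the repair genes and 7 other sets (panels, number of genes in brackets; symbols for replicates 1 to 3) against the day. S phase genes go from 0.60, 0.81 and 0.89 at 4.5DDC to -0.28, -0.85 and -1.20 at 6.5DDC. The repair genes go from 0.48, 0.42 and 0.61 to -0.30, -0.48 and -0.76. All genes tested stay near 0, where TMM scaling tends to hold them.

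In the second interval the S phase median within replicate 1 was 0.06, against -1.06 in replicates 2 and 3. The members had -0.30 and -0.65, and no test compared the replicates.

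Markers of cell types were read for every library. All 10 neural progenitor markers had counts, led by Vim, with summed FPKM of 2386, 2751 and 2269 at 4.5DDC, 3266, 2923 and 3197 at 5.5DDC, and 3132, 3030.0 and 3207 at 6.5DDC. Prom1, on which the cells were sorted, was present throughout and rose, with a log2 fold change of 1.19 (SE 0.18, adjusted p = 0.00363). Among the progenitor markers, Sox3 fell at -1.80 (SE 0.49, adjusted p = 0.03301) and Nkx6-1 at -1.14 (SE 0.28, adjusted p = 0.02199). Of 14 neuron markers 13 had counts (Tubb3 had no row and was not analysed here), with Nefm the highest by mean at 4.5DDC, Gap43 at 5.5DDC and Stmn2 at 6.5DDC. Their sums were 308.3, 789.6 and 541.4 at 4.5DDC, 245.9, 892.0 and 901.4 at 5.5DDC, and 476.1, 1014 and 1051 at 6.5DDC. Replicate 1 was thus the lowest in neuron markers on every day. No marker of any list was at 0 in all libraries.

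The remaining lists were smaller, each with 8 of 8 markers counted. Glia markers, led by Slc1a3, summed to 25.5, 28.4 and 21.5 FPKM at 4.5DDC and 58.3, 52.7 and 54.1 at 6.5DDC. The sum is mostly Slc1a3, with means of 14.7 and 45.6, while Olig2 had 4.996 and 0.673 and was not called at -2.89 (SE 1.19, adjusted p = 0.115). Mesenchyme markers, with Twist1 the highest by mean at 4.5DDC and Col3a1 at 6.5DDC, gave 8.79, 16.3 and 8.77 and then 18.8, 42.7 and 58.5. Endoderm markers, led by Gata4, gave 5.19, 2.52 and 1.30 and then 16.9, 3.45 and 2.97, highest in replicate 1. Pluripotent cell markers, led by Klf4, gave 6.40, 4.17 and 4.01 and then 6.90, 3.29 and 2.68. The part of any of these cell types in the members' result was not tested.

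The values rest on 3 libraries per day from 1 cell line, and replicate 1 differed from the others in several markers as well as in the members. Messenger RNA was measured in whole populations, so neither protein nor repair itself was seen, and the share of cells in S phase was not measured. Genes that share over 13% of their exonic bases with other genes (Rad54l, Rad54b, Fancc, Fancf, Fancl and Fanci) have uncertain levels; the other tested members share 7.07% or less. The collection day goes along with time in culture, which cannot be told apart from it here. Calls near the threshold, Rad51c above all, depended on the test and on single libraries.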

How the data were processed

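The authors mapped single-end reads to GRCm38 with TopHat2 2.0.4, counted them per gene with HTSeq 0.6.1 and computed FPKM with Cufflinks 2.1.1. The deposited counts were unscaled, and in 98 of 38197 symbols they were not whole, as in expected counts; they were rounded to the nearest whole number, ties upward, and tested as counts. The deposited FPKM were used as levels without change. The deposited log2 values of limma voom were not used.

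Of the symbols, 15075 had no count in any library and 23122 had at least 1. filterByExpr kept 14742 genes, and TMM factors lay between 0.951 and 1.04. The day was the only factor of the quasi-likelihood fit in edgeR, which had no block and took all 9 libraries (common dispersion 0.0734, 6 residual degrees of freedom), with Benjamini-Hochberg adjustment over all genes. Standard errors are the absolute log2 fold change divided by the root of the F statistic. Changes within a replicate are differences of log2 CPM with a prior count of 2.

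The labels do not say what libraries with the same replicate number share. Their deviations from the mean of the day were correlated at 0.743, 0.386 and 0.452 between 4.5DDC and 5.5DDC for numbers 1, 2 and 3, at 0.454, 0.367 and 0.197 between 5.5DDC and 6.5DDC, and at 0.383, -0.0396 and -0.215 between 4.5DDC and 6.5DDC. Unlike numbers among 2 and 3 were correlated as well. They gave 0.291 and 0.39 between 4.5DDC and 5.5DDC, 0.225 and 0.405 between 5.5DDC and 6.5DDC, and 0.46 and 0.487 between 4.5DDC and 6.5DDC. Replicate 1 against numbers 2 and 3 of another day gave -0.653 to -0.123. The values thus set replicate 1 apart but do not show that numbers 2 and 3 were paired. The replicate block was kept as an alternative.

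The members and lists were chosen with earlier results of these data known. Positions came from GENCODE M21 and promoter windows from RefSeq. Fits were made with edgeR 4.0.16, DESeq2 1.42.0 and limma 3.58.1 under R 4.3.3. Summaries and figures were made with numpy 2.4.6, pandas 2.3.3, matplotlib 3.10.9 and scipy 1.17.1 under Python 3.11.15.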

Additional observations from a re-analysis of the deposited data

How the results depend on the processing

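The members' calls and log2 fold changes were repeated under 22 alternatives of scaling, filter, test, unit, block, rounding and samples. Members called from 4.5DDC to 6.5DDC numbered 25, with 24 under the replicate block and from 20 to 26 with 1 library left out. From 4.5DDC to 5.5DDC 0 were called, 0 also under the replicate block, but 6 by DESeq2, 3 with a block for replicate 1 and 2 in replicates 2 and 3 only. From 5.5DDC to 6.5DDC 0 were called, but 10 by DESeq2, 7 with a block for replicate 1, 9 in replicates 2 and 3 only, and from 0 to 4 with 1 library left out, the 4 without replicate 1 of 6.5DDC. The log2 fold change of Rad51d, -0.03527, changed sign with the 6 libraries compared (0.000302), at least 1 CPM in 3 libraries (0.00144), and replicates 2 and 3 only (0.0982), and ran from -0.185 to 0.0804 with 1 library left out. That of Rad52, -0.01054, changed sign with the 6 libraries compared (0.02695), DESeq2 (0.00522), RLE size factors (0.00181), at least 1 CPM in 3 libraries (0.02803), log2(FPKM + 0.1) (0.163), log2(FPKM + 1) (0.155), no filter (0.0237) and replicates 2 and 3 only (0.108), and ran from -0.149 to 0.143 with 1 library left out. Rounding ties to even changed no count of members called.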
